A study of Mus musculus with 18 samples.

Results

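HM-1 cells carrying the Cd276KO label were compared with HM-1 control cells, both grown in culture, over all genes. The members were chosen by label: 3 libraries labelled Cd276KO and 3 control libraries, 6 of the 18 libraries of a study on B7-H3 loss in mouse ovarian cancer cells and tumors. HM-1 is a mouse ovarian cancer line of the B6C3F1 hybrid background. The tested cells are given as a Cd276 (B7-H3) knockout, and the control cells only as control, so a vector or guide that they may carry is not given in the sources used here. Total RNA was sequenced, and the values are whole-number read counts for 54752 genes, of which 12457 passed the filter on low counts. Total counts were 19393907 to 20945275 per library in Cd276KO cells and 17631035 to 25354150 in control cells. By their labels the 3 libraries of each group are biological replicates, while separate cultures or the number of Cd276KO clones are not stated. The p-values therefore measure the spread between these samples, which may be technical. The remaining 12 libraries, from tumors that HM-1 cells formed in the skin and from the line ID8, served for comparison.

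B7-H3 is a surface glycoprotein of the B7 family, whose ligands tune T cell responses, and many carcinomas carry it. NF-kB is a family of transcription factors held in the cytoplasm by inhibitors of the IkB type, and its active forms switch on chemokine, cytokine and survival genes. Gut epithelium is specified by transcription factors such as Cdx2 and Hnf4a, and its secretory cells make mucin-associated trefoil peptides.

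Cd276 itself had 47.2, 47.7 and 44.8 CPM (counts per 1000000 counts of the library) in Cd276KO libraries 1 to 3. It had 74.2, 93.5 and 91.5 CPM in control libraries 1 to 3. The groups did not overlap, which held for 53.0% of all genes tested. The gene was still expressed in the libraries labelled Cd276KO, at a log2 fold change of -0.85 (SE 0.10, edgeR adjusted p = 0.00146). Every adjusted p given here comes from the quasi-likelihood test of edgeR, adjusted over all genes tested by the method of Benjamini and Hochberg. Without control 1 the log2 fold change was -0.94. Counts per gene do not show which exon was targeted, so they do not tell how much functional protein remained. Among other B7 ligands tested, the ICOS ligand gene Icosl had 0.859, 0.768 and 0.619 CPM in Cd276KO cells against 1.87, 2.52 and 2.45 CPM in controls (log2 fold change -1.57, SE 0.21, edgeR adjusted p = 0.00241). Cd274, which encodes PD-L1, averaged 0.931 ± 0.229 CPM in Cd276KO cells and 2.09 ± 0.496 CPM in controls (SD, n = 3 each). Its log2 fold change was -1.12 (SE 0.26, edgeR adjusted p = 0.0202), a call that held in 2 of 6 fits leaving out 1 library. Cd80 did not pass the test (log2 fold change 0.29, SE 0.33, edgeR adjusted p = 0.552).

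Control 1 lay apart from its group before any comparison was made. Between control 1 and controls 2 and 3, 2346 and 2435 genes differed by more than 1.5-fold (18.8% and 19.5% of genes tested), against 86 genes (0.69%) between controls 2 and 3. Between Cd276KO libraries the number was 160 to 165. Control 2 and control 3 differed by a chi-square of 1.57 per gene, more than counting noise alone gives, and were not merged. That value does not show whether they came from separate cultures. The departure of control 1 followed exonic length. Genes were split by exonic length into 5 equal groups. In the group with the shortest genes, the median log2 difference of control 1 from the mean of controls 2 and 3 was 0.34, and in the group with the longest it was -0.54. Between controls 2 and 3 these medians were 0 and -0.01. Ribosomal protein genes took 6.12% to 6.35% of counts in Cd276KO libraries and 9.63% in control 1, against 6.62% and 6.66% in controls 3 and 2.

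Among the genes farthest below in control 1 was the kinase gene Hipk2. It had 133, 142 and 150 CPM in Cd276KO libraries and 13.6, 83.2 and 80.6 CPM in controls 1 to 3. Hipk2 did not pass the test with all 6 libraries (log2 fold change 1.30, edgeR adjusted p = 0.131) and did without control 1 (0.84, edgeR adjusted p = 6.93e-19). Atp7a, a copper transporter gene, had 25.2, 28.2 and 25.3 CPM in Cd276KO libraries and 2.61, 20.2 and 20.7 CPM in controls 1 to 3. At the other end, the ribosomal protein gene Rpl24 had 107, 112 and 95.5 CPM in Cd276KO libraries and 204, 108 and 113 CPM in controls 1 to 3. Control 1 carried most of the spread of its group in these genes.

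**Figure D1:**
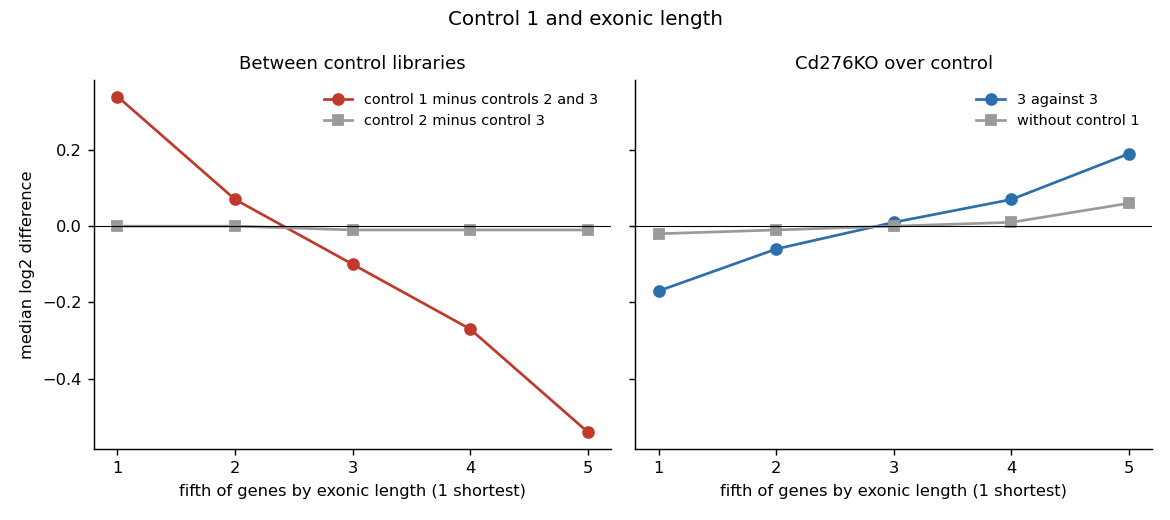
Median log2 difference in 5 equal groups of genes by exonic length, from 1 (shortest) to 5 (longest), for genes averaging 5 CPM or more. Left: control 1 minus the mean of controls 2 and 3 was 0.34 in the shortest group and -0.54 in the longest, while control 2 minus control 3 stayed within 0.01 of 0. Right: Cd276KO over control ran between -0.17 and 0.19 with all libraries and between -0.02 and 0.06 without control 1.

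Of 12457 genes tested, 3452 were called at an adjusted p under 0.05 (27.7%), 1450 higher (11.6%) and 2002 lower (16.1%) in Cd276KO cells. The lower genes moved farther. Among called genes, 281 were more than 2-fold higher and 714 more than 2-fold lower, and all 161 that changed by more than 16-fold were lower. Without control 1, 7491 of 12685 genes were called (59.1%), 3632 higher (28.6%) and 3859 lower (30.4%). Of the 3452 called genes, 3446 were also called without control 1 in the same direction, and the sign turned for none. Leaving out a Cd276KO library lowered the count, to 1741, 1815 and 1725 genes without libraries 1, 2 and 3. In all 7 fits (all libraries, and each left out in turn) 1523 genes were called (12.2%), 555 higher and 968 lower. The groups did not overlap in any of the 3452 called genes, nor in 53.0% of all genes tested.

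**Figure D2:**
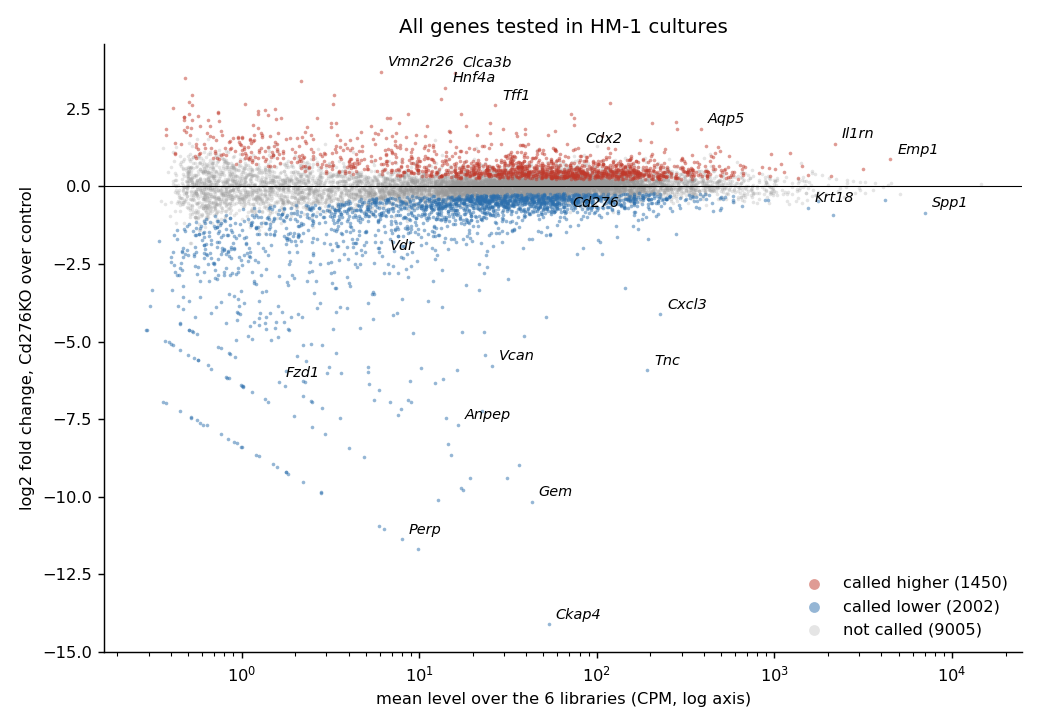
Log2 fold change of Cd276KO over control for each gene tested, against its mean level over the 6 libraries (CPM, log axis), with called genes in colour. Large changes were mostly decreases, down to genes with no count left such as Ckap4 and Perp, while the higher genes stayed within a log2 fold change of 3.70.

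Gastrointestinal epithelial genes were higher in Cd276KO cells. Of 15 members tested, 10 were called higher and 1 lower (73.3% called, against 27.7% of all genes). Of these, 9 of the higher and the lower one were called in all 7 fits. The median log2 fold change was 1.24, against -0.01 over all genes tested. Hnf4a, a transcription factor of hepatic and intestinal epithelia, had 26.8, 24.3 and 24.4 CPM in Cd276KO cells and 1.93, 3.27 and 3.21 CPM in controls (log2 fold change 3.18, SE 0.18, edgeR adjusted p = 7.4e-05). The intestinal homeobox gene Cdx2 had 109, 111 and 107 CPM in Cd276KO cells and 53.5, 45.2 and 43.7 CPM in controls (log2 fold change 1.24, SE 0.10, edgeR adjusted p = 0.000346). Both factors were thus present in control cells and higher in every Cd276KO library. Cdx2, and Foxa1 below, were named after their values were seen. Foxa1, a pioneer factor of endodermal epithelia, had 254, 247 and 250 CPM in Cd276KO cells and 179, 191 and 192 CPM in controls (log2 fold change 0.46, SE 0.07, edgeR adjusted p = 0.00317).

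Secreted products of mucous epithelia rose as well. Tff1, a trefoil peptide of gastric mucus, had 43.4, 48.5 and 44.8 CPM in Cd276KO cells and 9.98, 6.47 and 6.55 CPM in controls. Its relative Tff2 had 3.72, 3.89 and 3.51 CPM in Cd276KO cells and 1.70, 1.30 and 0.972 CPM in controls (log2 fold change 1.54, SE 0.21, edgeR adjusted p = 0.00292). Of the chloride channel accessory genes tested in the list, 3 rose and Clca1 (-0.15) did not pass the test. Clca3a1 averaged 206 ± 2.81 CPM in Cd276KO cells and 32.9 ± 7.09 CPM in controls, Clca3b 29.7 ± 0.0316 CPM in Cd276KO cells and 2.36 ± 0.885 CPM in controls (SD, n = 3 each), and Clca4a rose by 1.47 (SE 0.24) on the log2 scale. Their copies are alike, so their reads may be shared. The exception in the list was Anpep, the brush border aminopeptidase, at 0.239, 0.102 and 0.103 CPM in Cd276KO cells and 25.2, 38.1 and 35.4 CPM in controls (log2 fold change -7.68, SE 0.30, edgeR adjusted p = 2.23e-05). Lgals4 (0.03), Cdh17 (0.23) and Fabp2 (-0.28), other intestinal genes chosen here after their values were seen, did not pass the test. Tff2, Clca1 and Clca4a were likewise named after their values were seen.

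Promoters of genes that rose and of a gene that was lost are shown for their contrast in base composition. The sequences below come from RefSeq on GRCm38.p6 and run from 250 bases before to 50 bases after the annotated start, 5′ to 3′ on the gene's strand, with each CG dinucleotide in capitals. They show Hnf4a (chr2:163506607-163506906, plus strand) and Clca3b (chr3:144849253-144849552, minus strand), which rose, beside Ckap4 (chr10:84533839-84534138, minus strand), the most highly expressed gene lost from Cd276KO cells.
Hnf4a: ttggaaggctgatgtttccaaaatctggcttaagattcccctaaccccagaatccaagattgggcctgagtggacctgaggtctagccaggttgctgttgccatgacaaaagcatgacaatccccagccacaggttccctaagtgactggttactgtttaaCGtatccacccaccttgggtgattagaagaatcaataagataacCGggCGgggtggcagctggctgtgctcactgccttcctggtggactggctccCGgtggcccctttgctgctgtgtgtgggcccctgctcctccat
Clca3b: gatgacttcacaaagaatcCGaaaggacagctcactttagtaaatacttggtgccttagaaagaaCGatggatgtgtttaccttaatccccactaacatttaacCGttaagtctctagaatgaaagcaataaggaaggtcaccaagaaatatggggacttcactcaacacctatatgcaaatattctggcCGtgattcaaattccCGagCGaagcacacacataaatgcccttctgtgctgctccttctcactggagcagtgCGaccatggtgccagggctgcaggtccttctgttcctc
Ckap4: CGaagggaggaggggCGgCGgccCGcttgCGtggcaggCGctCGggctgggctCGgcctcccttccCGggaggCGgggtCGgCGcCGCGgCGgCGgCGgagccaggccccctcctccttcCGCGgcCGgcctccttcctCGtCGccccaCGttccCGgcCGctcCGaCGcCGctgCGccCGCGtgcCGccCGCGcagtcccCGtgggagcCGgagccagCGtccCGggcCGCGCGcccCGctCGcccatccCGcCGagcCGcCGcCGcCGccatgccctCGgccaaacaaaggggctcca

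These promoters held 4, 7 and 50 CG dinucleotides. They were picked for contrast and do not stand for their classes. Ckap4 lay above the upper quartile (26) of genes lower by more than 16-fold, whose median was 11. Over the 9321 tested genes with a RefSeq promoter the median was 21, and it was 22 for genes not called. It was 14 for genes more than 2-fold higher in Cd276KO cells, 13 for genes lower by 2- to 16-fold and 11 for genes lower by more than 16-fold. Genes that changed by up to 2-fold had medians of 23 (higher) and 19 (lower), near that of all genes. Median counts were thus lower among genes with large changes in either direction, but the ranges overlapped, with upper quartiles of 25 (more than 2-fold higher), 23 (lower by 2- to 16-fold) and 26 (lower by more than 16-fold). DNA methylation was not measured in these samples.

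The largest differences in level included a cytokine antagonist, an epithelial membrane protein and osteopontin. Il1rn, the antagonist of the interleukin-1 receptor, had 3240, 2985 and 3152 CPM in Cd276KO cells and 1241, 1255 and 1241 CPM in controls (log2 fold change 1.37, SE 0.08, edgeR adjusted p = 7.06e-05). Emp1, an epithelial membrane protein gene, averaged 5770 ± 90.5 CPM in Cd276KO cells and 3233 ± 243 CPM in controls (SD, n = 3 each). Spp1, which encodes osteopontin and was the highest-expressed gene to fall, had 5100, 4599 and 5016 CPM in Cd276KO cells and 10019, 8710 and 8568 CPM in controls (log2 fold change -0.85, SE 0.10, edgeR adjusted p = 0.00163). The groups overlapped in neither Il1rn nor Spp1, nor in any other called gene. The water channel gene Aqp5 had 564, 626 and 612 CPM in Cd276KO cells and 188, 167 and 155 CPM in controls (log2 fold change 1.86, SE 0.11, edgeR adjusted p = 8.14e-05). The intermediate filament gene Nes averaged 676 ± 8.50 CPM in Cd276KO cells and 291 ± 16.5 CPM in controls, and the receptor phosphatase gene Ptprz1 446 ± 12.1 CPM in Cd276KO cells and 110 ± 30.8 CPM in controls (SD, n = 3 each). Among simple epithelial keratins, Krt19 rose by 0.65 (SE 0.10) and Krt18 fell by 0.68 (SE 0.12) on the log2 scale. Krt8, named after its value was seen, had 2457 CPM in Cd276KO cells and 2574 CPM in controls (edgeR adjusted p = 0.853).

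**Figure D3:**
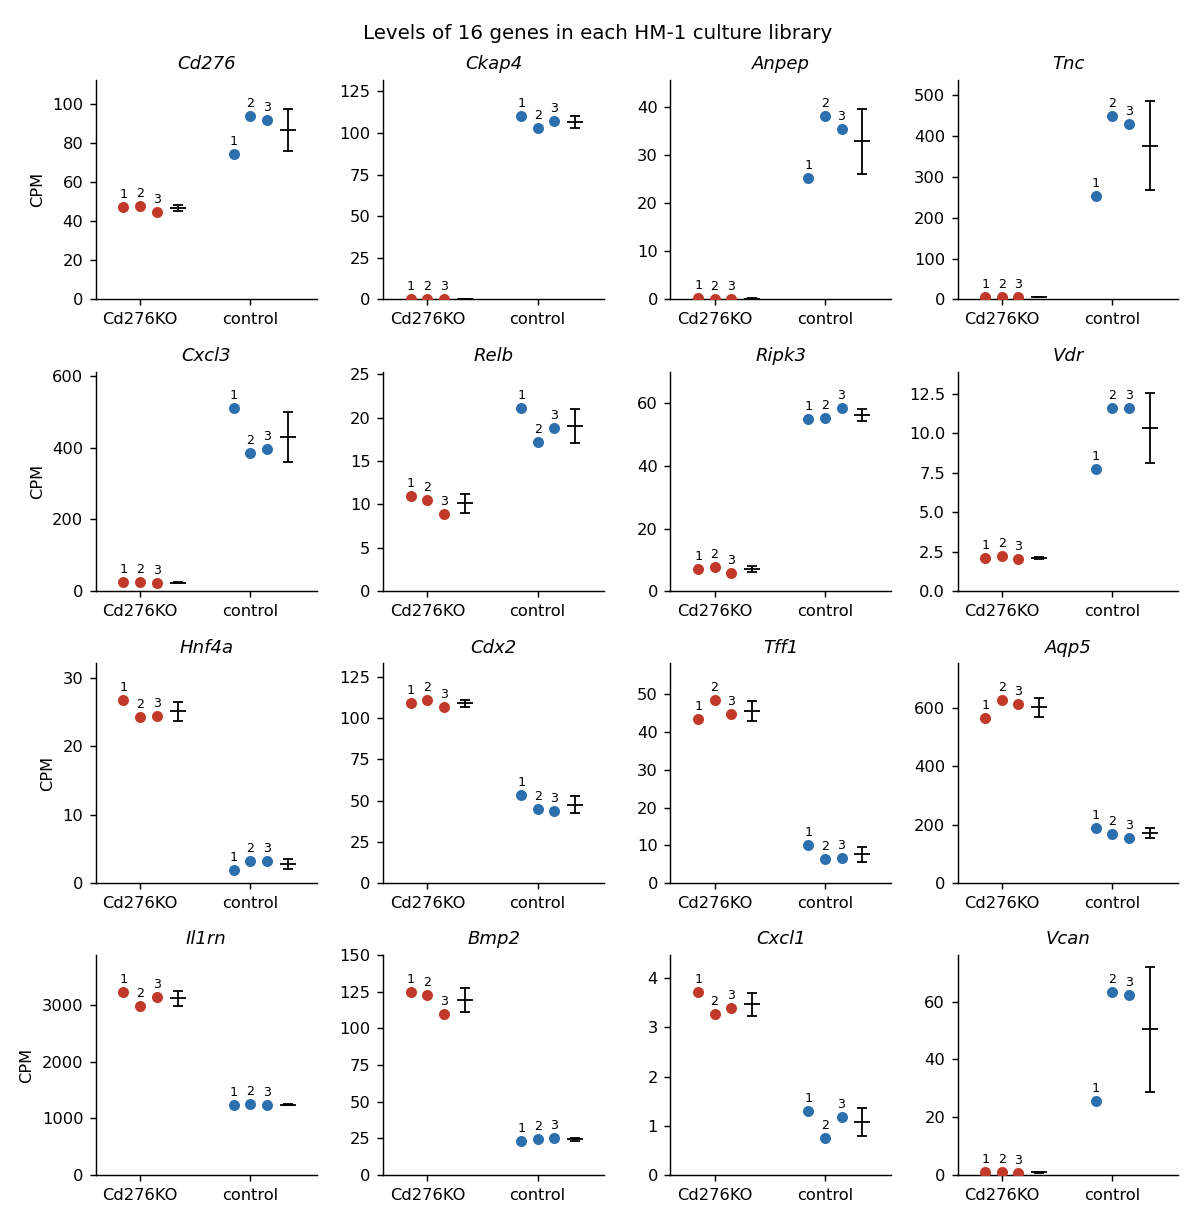
Level of 16 genes in each library (CPM, linear axis from 0), Cd276KO left and control right, with library numbers, and mean ± SD beside the points (n = 3 each). In every panel the 3 Cd276KO libraries lie on one side of the 3 controls, as in 53.0% of all genes tested. Control 1 lies below controls 2 and 3 for Tnc, Vcan, Vdr and Anpep.

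Regulators of NF-kB, among them its inhibitors and members of the alternative pathway, were lower in Cd276KO cells. Of 20 subunits and regulators tested, 12 were called lower and 1 higher (65.0% called, against 27.7% of all genes). In all 7 fits 6 and 1 were called. The list median was -0.42, or -0.45 without control 1. Map3k14, the kinase NIK that starts the alternative pathway, had 10.8, 12.3 and 12.1 CPM in Cd276KO cells and 19.5, 29.3 and 27.8 CPM in controls (log2 fold change -1.08, SE 0.16, edgeR adjusted p = 0.00373). Its subunit Relb had 11, 10.5 and 8.92 CPM in Cd276KO cells and 21.1, 17.2 and 18.8 CPM in controls (-0.86, SE 0.13, edgeR adjusted p = 0.00346). The IkB gene Nfkbie fell by 0.99 (SE 0.09) on the log2 scale. In all 3 genes the groups did not overlap, as in every called gene and in 53.0% of all genes tested. The subunits of the classical pathway did not pass the test, with log2 fold changes of 0.13 for Rela, -0.06 for Nfkb1 and -0.11 for Rel (named after their values were seen). Ikbkg, the regulatory subunit of the IkB kinase, was the higher member, with 125, 120 and 122 CPM in Cd276KO cells and 66.8, 76.6 and 78.4 CPM in controls (0.77, SE 0.08, edgeR adjusted p = 0.000891).

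Chemokines and myeloid growth factors were split between strong decreases and increases. Of 20 tested, 10 were lower and 6 higher, 9 and 5 in all 7 fits, with a median of -0.81. Over all genes tested, 27.7% were called, and 12.2% were called in all 7 fits. Cxcl3, a neutrophil chemokine, had 24.9, 24.4 and 23.2 CPM in Cd276KO cells and 510, 386 and 395 CPM in controls (log2 fold change -4.12, SE 0.15, edgeR adjusted p = 1.51e-05). Cxcl1, of the same family, had 3.72, 3.28 and 3.40 CPM in Cd276KO cells and 1.30, 0.749 and 1.18 CPM in controls (log2 fold change 1.74, SE 0.22, edgeR adjusted p = 0.002). Cxcl2 had 5.63, 4.81 and 4.90 CPM in Cd276KO cells and 2.89, 2.41 and 1.82 CPM in controls (1.16, SE 0.19, edgeR adjusted p = 0.00571). Neighbouring and related chemokine genes therefore changed in opposite directions. The monocyte-macrophage growth factor genes Csf1 and Il34, named after their values were seen, both fell. Csf1 had 33.5, 34.1 and 31.4 CPM in Cd276KO cells and 56.6, 73.1 and 70.5 CPM in controls, and Il34 had 8.16, 7.84 and 7.27 CPM in Cd276KO cells and 31, 27.9 and 27.6 CPM in controls. Cxcl16, a transmembrane chemokine, had 0.525, 0.205 and 0.206 CPM in Cd276KO cells and 6.18, 4.73 and 4.10 CPM in controls (-3.91, SE 0.35, edgeR adjusted p = 0.000455).

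The promoters of Cxcl3, Cxcl1 and Cxcl2 are shown because these genes moved apart although they lie together on chromosome 5 and share an NF-kB motif. The coordinates are chr5:90785851-90786150, chr5:90890995-90891294 and chr5:90903649-90903948, all on the plus strand, from RefSeq on GRCm38.p6, with the bases that match the kB consensus in capitals.
Cxcl3: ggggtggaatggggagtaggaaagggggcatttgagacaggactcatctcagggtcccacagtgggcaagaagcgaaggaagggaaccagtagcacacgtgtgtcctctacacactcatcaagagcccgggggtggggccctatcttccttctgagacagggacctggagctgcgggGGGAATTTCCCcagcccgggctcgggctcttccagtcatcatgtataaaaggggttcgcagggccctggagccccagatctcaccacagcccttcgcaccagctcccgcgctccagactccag
Cxcl1: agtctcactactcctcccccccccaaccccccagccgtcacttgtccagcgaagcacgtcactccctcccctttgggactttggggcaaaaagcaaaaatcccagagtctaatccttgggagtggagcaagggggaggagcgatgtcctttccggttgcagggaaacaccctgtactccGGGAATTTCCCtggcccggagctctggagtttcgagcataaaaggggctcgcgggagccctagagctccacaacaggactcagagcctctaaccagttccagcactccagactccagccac
Cxcl2: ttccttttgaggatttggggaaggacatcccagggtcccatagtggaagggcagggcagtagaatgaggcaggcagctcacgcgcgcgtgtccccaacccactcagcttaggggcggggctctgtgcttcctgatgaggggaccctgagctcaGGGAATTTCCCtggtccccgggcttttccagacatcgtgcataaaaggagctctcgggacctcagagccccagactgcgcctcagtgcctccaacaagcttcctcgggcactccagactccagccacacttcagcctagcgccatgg

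All 3 promoters held the same match, GGGAATTTCCC, which reads as a kB consensus on both strands so that the matches overlap. It begins at positions -73, -71 and -97 from the annotated start. The consensus was searched on both strands of the 9321 promoters and found in 943 (10.1%). It was in 10.9% of promoters of genes more than 2-fold lower in Cd276KO cells and in 10.5% of those more than 2-fold higher, close to the share of all. Within the chemokine list it was in 3 of 5 promoters of lower genes and in 4 of 5 of higher genes, and in 5 of 10 promoters of lower NF-kB regulators. A match describes letters in this window and is not a measured binding site.

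Several genes of inflammatory cell death were lower in Cd276KO cells, while the initiator caspase of the extrinsic pathway was higher. Of 33 apoptosis and necroptosis genes tested, 10 were lower and 6 higher (48.5% called, against 27.7% of all genes, median -0.25). In all 7 fits 7 lower and 1 higher were called. Ripk3, the kinase that starts necroptosis, had 7.16, 7.84 and 5.93 CPM in Cd276KO cells and 54.8, 55.4 and 58.4 CPM in controls (log2 fold change -2.97, SE 0.11, edgeR adjusted p = 2.06e-05). Casp4, mouse caspase-11 of the non-canonical inflammasome, had 0.334, 0.0512 and 0.0516 CPM in Cd276KO cells and 3.01, 2.37 and 2.83 CPM in controls (-4.09, SE 0.47, edgeR adjusted p = 0.00127). Casp1, the canonical inflammasome caspase, had 10.8, 11.2 and 9.69 CPM in Cd276KO cells and 30.6, 21.6 and 23.2 CPM in controls. Gsdmd, the pore-forming gasdermin that these caspases cleave, had 32.5, 32.8 and 31.4 CPM in Cd276KO cells and 61.8, 54.6 and 55.6 CPM in controls (-0.79, SE 0.09, edgeR adjusted p = 0.00102). Transcripts of an inflammasome caspase pair and of their substrate were thus lower in the same libraries, whereas Mlkl, the executioner of necroptosis, did not pass the test (-0.25). Casp1, Gsdmd and Mlkl were named after their values were seen. Casp8, the initiator caspase of death receptors, had 139, 139 and 134 CPM in Cd276KO cells and 90.0, 93.9 and 96.0 CPM in controls (0.60, SE 0.07, edgeR adjusted p = 0.00121). Its inhibitor Cflar rose by 0.63 (SE 0.17, edgeR adjusted p = 0.0326), or by 0.45 without control 1, a call that held in 3 of 6 fits leaving out 1 library.

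Of 31 innate sensors and adaptors, 8 were lower and 6 higher (45.2% called, against 27.7% of all genes, median 0.02). Nlrc5, a transactivator of MHC class I genes, had 3.96, 4.05 and 3.76 CPM in Cd276KO cells and 9.47, 14.8 and 12.7 CPM in controls (log2 fold change -1.61, SE 0.17, edgeR adjusted p = 0.00101). Toll-like receptor genes differed among themselves. Tlr2, named after its value was seen, had 0 counts in each Cd276KO library and 0.964, 0.986 and 1.18 CPM in controls. By contrast, Tlr6 rose by 1.21 (SE 0.20) and Tlr3 by 0.84 (SE 0.23), or 0.63 without control 1. The adaptor gene Myd88, named after its value was seen, had 29.5, 29.8 and 27.7 CPM in Cd276KO cells and 49.3, 51.7 and 53.0 CPM in controls (-0.78, SE 0.07, edgeR adjusted p = 0.000511). Of 36 cytokine receptor and JAK-STAT genes, 9 were lower and 3 higher (33.3% called, against 27.7% of all genes), with a median of -0.01 as over all genes. Il2rg, the common gamma chain, had 0.286, 0.0512 and 0.0516 CPM in Cd276KO cells and 3.74, 3.59 and 3.17 CPM in controls. Il18r1, which binds interleukin-18, fell by 4.46 (SE 0.36) and Ifnlr1, the receptor of type III interferon, by 1.77 (SE 0.23) on the log2 scale. Il1rl1, the interleukin-33 receptor, rose by 1.88 (SE 0.26). The interferon receptor and kinase genes Ifnar1, Ifngr1 and Jak1, named after their values were seen, did not pass the test (0.38, -0.05 and 0.26).

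Collagens and matricellular glycoproteins that passed the test were mostly lower. Of 14 matricellular glycoproteins tested, 7 were lower and 3 higher (71.4% called, median -0.34). Of 20 collagens and collagen-processing enzymes, 10 were lower and 1 higher (55.0% called, median -0.31). Over all genes, 27.7% were called. Tnc, which encodes tenascin-C, had 6.21, 5.63 and 6.29 CPM in Cd276KO cells and 252, 448 and 429 CPM in controls (log2 fold change -5.92, SE 0.26; -6.13 without control 1). Vcan, the large proteoglycan versican, had 0.907, 1.08 and 0.670 CPM in Cd276KO cells and 25.5, 63.4 and 62.3 CPM in controls (log2 fold change -5.78, SE 0.46, edgeR adjusted p = 0.000275; without control 1 it was -6.09). The non-fibrillar collagen gene Col8a1 had 3.01, 2.30 and 2.42 CPM in Cd276KO cells and 56.6, 84.8 and 84.5 CPM in controls (-4.82, SE 0.21, edgeR adjusted p = 2.89e-05). These 3 genes fell by more than 16-fold whether or not control 1 was used. Col16a1 (-3.75, SE 0.22) and Col5a3 (-3.62, SE 0.18) also fell, while Col6a3 rose, with 58.5, 65.4 and 60.5 CPM in Cd276KO cells and 9.07, 22.7 and 21.1 CPM in controls (1.84, SE 0.30, edgeR adjusted p = 0.0055; 1.54 when control 1 was left out). The fibrillar collagen gene Col3a1, at 170 CPM in Cd276KO cells and 150 CPM in controls, did not pass the test (edgeR adjusted p = 0.199). It was named after its value was seen.

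Extracellular proteases and their inhibitors changed in both directions, and those described here, Mmp13, Spint2 and Plau, were all lower. Of 25 extracellular proteases and inhibitors, 8 were lower and 4 higher (48.0% called, against 27.7% of all genes, median -0.15). Mmp13, a collagenase, had 29.1, 24.8 and 25.9 CPM in Cd276KO cells and 260, 262 and 269 CPM in controls (log2 fold change -3.27, SE 0.09, edgeR adjusted p = 7.15e-06). Spint2, which inhibits surface serine proteases, had 0, 0 and 0.103 CPM in Cd276KO cells and 40.7, 29.9 and 32.2 CPM in controls. Plau, the urokinase gene, had 13.4, 15.4 and 14.5 CPM in Cd276KO cells and 44.5, 40.4 and 41.9 CPM in controls (-1.51, SE 0.09, edgeR adjusted p = 0.0001, named after its value was seen). Among integrins, 5 of 16 were higher and 4 lower (56.2% called). Itgb2, the beta subunit otherwise known from leukocytes, had 256, 256 and 255 CPM in Cd276KO cells and 80.7, 98.8 and 101 CPM in controls (1.49, SE 0.10, edgeR adjusted p = 0.000129). Lama3, which encodes a laminin chain of epithelial basement membranes, rose by 1.55 (SE 0.29) on the log2 scale, or by 1.27 without control 1. No complement or coagulation gene was called higher and 6 of 12 were lower (median -0.46), among them Clu, the chaperone clusterin, with 24.3, 25 and 26.8 CPM in Cd276KO cells and 85.5, 73.6 and 75.4 CPM in controls.

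**Figure D4:**
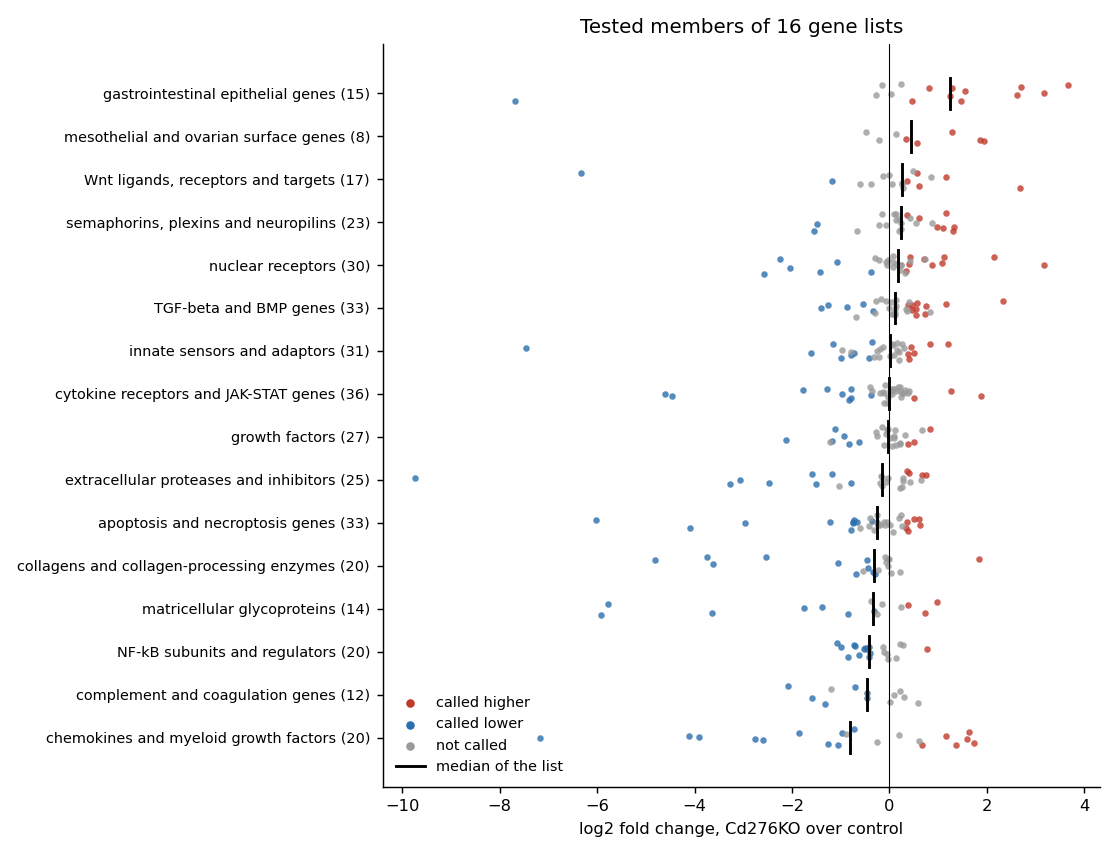
Log2 fold change of Cd276KO over control for each tested member of 16 gene lists (number tested in brackets), ordered by the list median (black bar), with called members in colour. Gastrointestinal epithelial genes have the highest median (1.24) and chemokines the lowest (-0.81), and most lists hold members called in both directions.

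Signalling genes of the BMP and TGF-beta families changed in both directions. Of 33 tested, 10 were higher and 5 lower (45.5% called, against 27.7% of all genes). The list median was 0.12, or 0.06 without control 1. Bmp2, a morphogen, had 125, 123 and 110 CPM in Cd276KO cells and 23.3, 24.5 and 25.2 CPM in controls (log2 fold change 2.34, SE 0.08, edgeR adjusted p = 1.51e-05). Inhba, the activin A subunit, had 67.4, 61.6 and 60.3 CPM in Cd276KO cells and 18.9, 34.4 and 34.5 CPM in controls (1.15, SE 0.21, edgeR adjusted p = 0.00923; 0.93 without control 1). Fst, the antagonist that binds activin, had 95.3, 93.3 and 89.0 CPM in Cd276KO cells and 242, 220 and 219 CPM in controls (-1.26, SE 0.08, edgeR adjusted p = 0.000121). The activin subunit and its antagonist thus moved in opposite directions in every library. Tgfbr3, the betaglycan co-receptor, fell by 1.40 (SE 0.18), and Id2, a BMP target gene, fell by 0.88 (SE 0.10) on the log2 scale. Among Wnt genes, 5 of 17 were higher and 2 lower (41.2% called). Wnt5a rose by 2.67 (SE 0.31) at a low level, 1.53, 1.74 and 2.11 CPM in Cd276KO cells and 0.284, 0.394 and 0.169 CPM in controls. The receptor gene Fzd1 had 0.0955, 0 and 0 CPM in Cd276KO cells and 2.84, 3.90 and 2.87 CPM in controls.

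Of 30 nuclear receptors, 9 were higher and 6 lower (median 0.18). Besides Hnf4a, Nr1d1, a clock repressor, rose, with 62.9, 70.5 and 63.8 CPM in Cd276KO cells and 25.5, 36.3 and 34.2 CPM in controls (log2 fold change 1.08, SE 0.13, edgeR adjusted p = 0.0019). The vitamin D receptor gene Vdr had 2.10, 2.20 and 2.06 CPM in Cd276KO cells and 7.77, 11.6 and 11.6 CPM in controls (-2.24, SE 0.18, edgeR adjusted p = 0.000321). Semaphorins, plexins and neuropilins, which guide axons and vessels, were higher in 7 of 23 and lower in 2 (39.1% called). Sema3a had 704, 652 and 678 CPM in Cd276KO cells and 255, 346 and 346 CPM in controls (1.15, SE 0.12, edgeR adjusted p = 0.00107), and Sema3c rose by 1.30 (SE 0.16). Of 10 neuronal genes tested, 5 were lower and 1, the ion channel gene Trpa1, higher. Scg2, a granin of secretory vesicles, had 3.58, 3.43 and 3.66 CPM in Cd276KO cells and 36.9, 30.7 and 32.1 CPM in controls. Jun and Fos, the partners in AP-1, moved apart, with Jun at 34.8, 35.2 and 34.5 CPM in Cd276KO cells and 77.5, 89.7 and 86.1 CPM in controls, and Fos at 6.83, 6.86 and 6.55 CPM in Cd276KO cells and 2.16, 3.35 and 2.87 CPM in controls. The growth factor receptor gene Igf2r had 3.01, 4.05 and 4.33 CPM in Cd276KO cells and 23.8, 47.4 and 46.7 CPM in controls (-3.33, SE 0.30, edgeR adjusted p = 0.000482).

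In 30 of the tested genes no Cd276KO library held a count, and 29 of these are protein-coding. No tested gene lacked counts in all controls. Besides Ckap4, Perp and Xlr, the genes with the highest control levels were Akip1, Tmem37, Tnfsf11, Slitrk6 and Tusc1. Tnfsf11, the cytokine RANKL, had 4.20, 4.77 and 4.35 CPM in controls and was at least 89.2-fold lower in Cd276KO cells, with 3 counts over all Cd276KO libraries (0.0501 CPM) taken as the floor. Akip1 had 6.18, 5.52 and 5.11 CPM in controls and was at least 111-fold lower. Cth, the last enzyme of the transsulfuration pathway, kept 2 counts in all, at 0.0477, 0.0512 and 0 CPM in Cd276KO cells and 7.03, 7.97 and 6.34 CPM in controls. The floor covers counting error only. In bulk libraries, fewer cells with a transcript and less of it per cell cannot be told apart.

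The medians of ribosomal protein and respiratory genes moved with control 1. Ribosomal protein genes had a median of -0.25 with all libraries and -0.02 without control 1. With all libraries 1 of 77 was called (1.3%, against 27.7% of all genes). Without control 1, 16 were called higher and 25 lower, where 59.1% of all genes were called. Oxidative phosphorylation subunits had medians of -0.22 and 0.02, with 3 of 87 higher and 11 lower (16.1% called), or 15 and 27 without control 1. Among DNA replication and repair genes, 7 of 40 were higher and 2 lower (22.5% called, below the 27.7% of all genes). Without control 1, 19 and 10 were called (median 0.06 both ways). The helicase subunit gene Mcm2 had 385, 420 and 410 CPM in Cd276KO cells and 236, 298 and 294 CPM in controls (log2 fold change 0.59, SE 0.10, edgeR adjusted p = 0.00666). Glycolysis and hypoxia genes had a median of -0.02, with 3 of 29 higher and 7 lower (34.5% called, against 27.7% of all genes). Of 173 solute carriers, 26 were higher and 37 lower (36.4% called). Slc26a2, a sulfate transporter, had 447, 431 and 431 CPM in Cd276KO cells and 78.3, 146 and 152 CPM in controls (1.84, SE 0.23, edgeR adjusted p = 0.00205; 1.6 without control 1).

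The labelled cell type was checked by marker lists. Simple epithelial keratins were abundant, and the carcinoma list summed to 5212 to 5521 CPM in Cd276KO cells and 5261 to 6329 CPM in controls, but Epcam had 0 counts in all 6 libraries, and Cdh1 stayed at a mean of 0.400 CPM or less in both groups. No T or NK cell gene of 10 passed the filter on low counts, and Cd3e, Cd3d, Nkg7, Gzmb and Ncr1 had none. Of 14 macrophage genes, 3 were tested, and the list summed to 120 to 128 CPM in Cd276KO cells and 79.9 to 95.3 CPM in controls, made up mostly by Cd14 and Mrc1, while C1qa and C1qc had 0 counts and Csf1r was at 0.0846 CPM in Cd276KO cells and 0.120 CPM in controls. Of 7 neutrophil genes, Ly6g was tested and higher (1.26), and the list summed to 10.3 to 11.3 CPM in Cd276KO cells and 4.27 to 5.33 CPM in controls. Fibroblast and endothelial lists summed to 168 to 174 and 1.90 to 3.09 CPM in Cd276KO cells and to 125 to 170 and 4.42 to 4.52 CPM in controls. The fibroblast sum was mostly Col3a1, and of 3 fibroblast genes tested 2 were lower and 0 higher (median -1.06). The 1 endothelial gene tested was lower (-0.96), but not in all 7 fits. The part of such cells in the results was not tested.

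Neighbouring genes along several chromosomes shifted together, by small amounts. On chromosome 6, 204 of 599 tested genes were called higher and 44 lower (41.4% called, against 27.7% of all genes). There 74.6% of genes had a log2 fold change above 0 and the median was 0.28. Chromosomes 12 (0.25) and 8 (0.20) had medians above 0 as well. Chromosome 15 had 206 of 526 genes called lower and 23 higher (43.5% called), with a median of -0.32. Chromosome 4 had 252 of 737 lower and 19 higher (36.8% called), with a median of -0.30 and 17.5% of genes above 0. Chromosomes 14 (-0.25), 13 (-0.24) and 11 (-0.17) were also low. The remaining autosomes lay between -0.01 and 0.07. Among these are chromosome 9, which holds Cd276 (0.03), and chromosome 10, which holds Ckap4 and Perp (-0.01).

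The chromosome medians were close together within each group. Relative to the mean of the 6 libraries, chromosome 6 lay at 0.16, 0.14 and 0.15 in Cd276KO libraries and at -0.15, -0.15 and -0.15 in controls, and chromosome 4 at -0.14, -0.14 and -0.14 in Cd276KO libraries and at 0.16, 0.12 and 0.12 in controls. Without control 1 the medians were 0.29 for chromosome 6 and -0.26 for chromosome 4. Control 1 lay apart from controls 2 and 3 on chromosomes 7 (0.03 against -0.03 and -0.03), 17 (0.04 against -0.03 and -0.04) and X (-0.01 against 0.05 and 0.05). For chromosomes 6 and 4, an exact two-sided permutation test over libraries gave p = 0.1 each, the smallest that 3 against 3 samples allow. Of the 20 chromosomes compared in this way, 17 had groups that did not overlap, many of them by a few hundredths.

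Within chromosomes, the shift covered whole chromosomes or long stretches. Genes averaging 2 CPM or more were taken in order in 268 groups of 40 neighbours, a choice made after the data were seen. The group median was at least 0.2 in 39 and at most -0.2 in 49, and the extremes were 0.48 on chromosome 6 and -0.56 on chromosome 14. All 13 groups of chromosome 6 were at or above 0.2. The longest run of adjoining groups at or beyond this limit held 9 of 15 groups on chromosome 8 (chr8:3122061-91123844 on GRCm38, median 0.29), 9 of 11 on chromosome 15 (chr15:3268547-98831521, median -0.32) and 8 of 10 on chromosome 13 (chr13:34875302-119790889, median -0.25). Chromosome 1 held both directions, with a higher stretch (chr1:33908225-95335284, 246 genes, median 0.23) and a lower one (chr1:161034422-176814067, 81 genes, median -0.33). DNA copy number was not measured, and its part in this pattern was not tested.

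**Figure D5:**
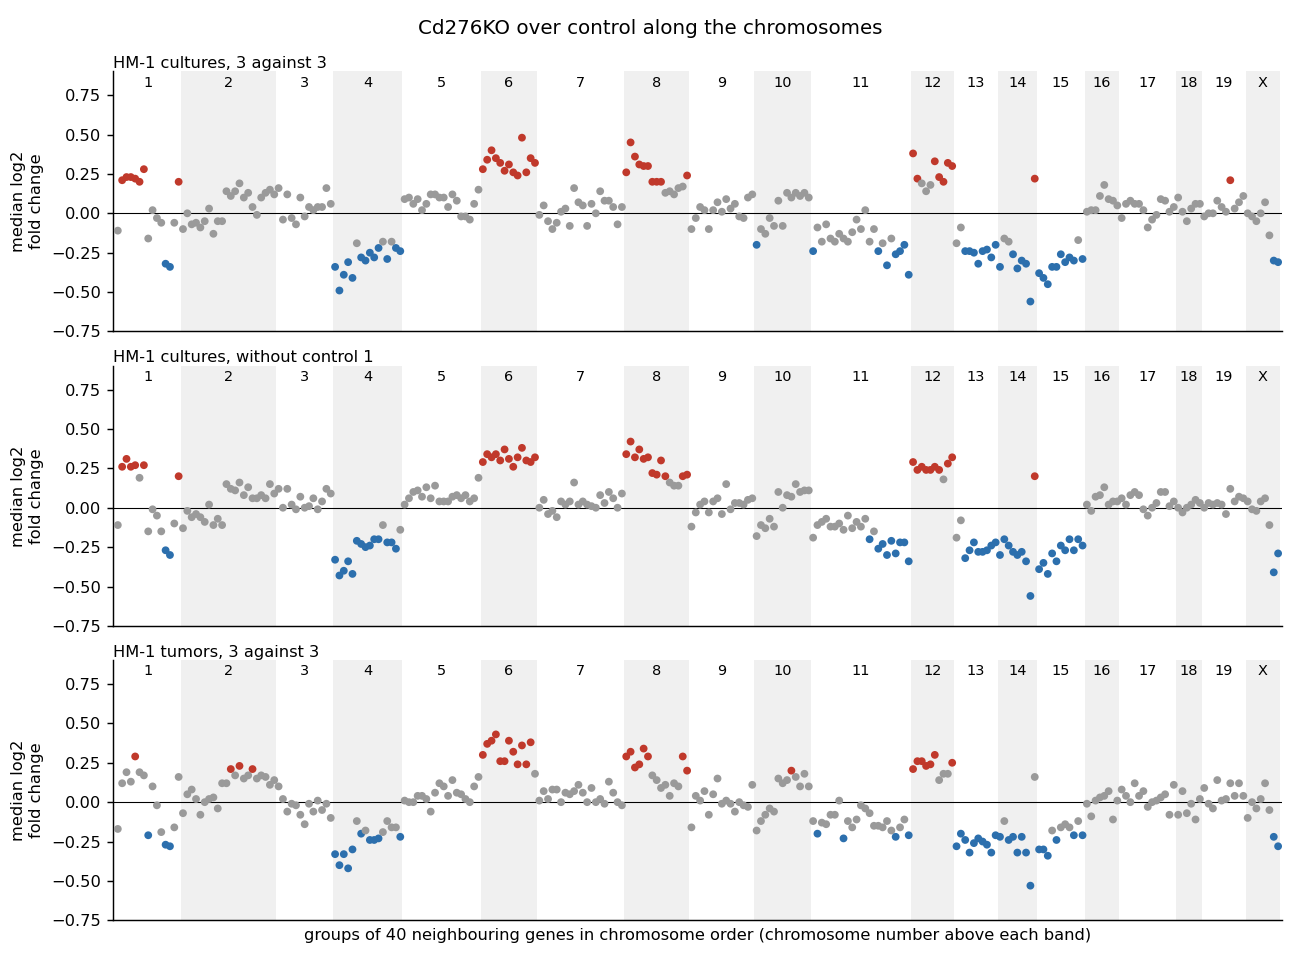
Median log2 fold change of Cd276KO over control in 268 groups of 40 neighbouring genes, in chromosome order (numbers on top), for HM-1 cultures with all libraries, HM-1 cultures without control 1, and HM-1 tumors, with groups at or beyond 0.2 in colour. Chromosomes 6, 8 and 12 lie above 0 and chromosomes 4, 13, 14 and 15 below 0 in all 3 panels, apart from the last group of chromosome 14.

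Tumors gave a second set of libraries for this pattern. They were taken from B6C3F1 mice on day 10 after injection of HM-1 cells into the skin, 3 from Cd276KO cells and 3 from control cells, and they share no library with the cultures. Of the 39 groups of neighbours that were high in cultures, 39 had a tumor median above 0, and of the 49 that were low, 49 had one below 0. Their medians in tumors were 0.24 and -0.23, against 0.01 in the groups between. In ID8 cells the same groups had medians of 0.04 and 0. Without control tumor 3, the tumor medians kept their side in 37 of 39 and 48 of 49. On chromosome 6 tumors had 0.17, 0.14 and 0.15 from Cd276KO cells and -0.14, -0.14 and -0.21 from controls, so the 2 sets of tumors did not overlap there.

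Single genes were less alike between cultures and tumors. In a fit of 12 libraries, 2709 of 15623 genes were called between Cd276KO and control tumors (17.3%), 1100 higher (7.04%) and 1609 lower (10.3%). Of the 3452 genes called in cultures, 85.7% had the same sign in tumors and 37.2% were also called there in the same direction, while 100 were called in the opposite one. The difference between the effects in tumors and cultures (interaction term) was called for 310 of the 3452. The culture libraries by which the 3452 were called also enter that term. Of genes not called in cultures, 66.0% had the same sign. Among genes past 4-fold in cultures, 64.9% were called in tumors in the same direction. Tumors hold host cells besides the injected ones, and their reads cannot be told apart.

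The effect in tumors differed from that in cultures for 443 of 15623 genes (2.84%) by the interaction term, 268 with a higher effect in tumors (1.72%) and 175 with a lower one (1.12%), a count that ran from 225 without Cd276KO culture 1 to 913 without control tumor 3. Ckap4, at 0 in Cd276KO cultures, had 24.2, 62.2 and 40.3 CPM in Cd276KO tumors and 208, 101 and 157 CPM in control tumors. Anpep had 14.7, 28.7 and 23.1 CPM in Cd276KO tumors and 62.0, 44.9 and 41.1 CPM in control tumors. In both genes the direction was kept and the level in Cd276KO tumors was far above that in culture. Aqp5 turned, with 18.1, 13 and 15.8 CPM in Cd276KO tumors and 56.5, 61.4 and 37.2 CPM in control tumors (tumor minus culture effect -3.56, SE 0.27, edgeR adjusted p = 7.5e-05). Tff1 turned as well, with 1.5, 0.468 and 1.27 CPM in Cd276KO tumors and 2.10, 2.77 and 10.5 CPM in control tumors (-4.83, SE 0.79, edgeR adjusted p = 0.00758). Hnf4a, by contrast, had 8.46, 2.51 and 6.23 CPM in Cd276KO tumors and 0.0405, 0.0938 and 0 CPM in control tumors. Bmp2 rose in tumors by 2.29 and Cxcl3 fell by 4.58 on the log2 scale, close to their values in culture (2.34 and -4.12). Spp1 was lower in Cd276KO cultures but had 13367, 11834 and 11521 CPM in Cd276KO tumors and 5977, 7784 and 11264 CPM in control tumors (tumor minus culture effect 1.45, SE 0.26, edgeR adjusted p = 0.0143).

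The effect in HM-1 cells differed from that in ID8 cells, cultured under the same pair of labels, for 5747 of 14208 genes (40.4%), 2940 with a higher effect in HM-1 cells (20.7%) and 2807 with a lower one (19.8%). Ckap4 averaged 66.4 ± 3.00 CPM in ID8 cells labelled Cd276KO and 67.9 ± 2.08 CPM in ID8 controls. Perp rose in ID8 cells, at 234 ± 6.34 CPM in Cd276KO and 112 ± 1.68 CPM in control cells (SD, n = 3 each), whereas no Cd276KO library of HM-1 held a count. Cdx2 and Hnf4a, which rose in HM-1, had a mean of 0 CPM in ID8 controls. Cxcl1, which rose in HM-1 cells, had 0.0373, 0.0712 and 0 CPM in ID8 cells labelled Cd276KO and 2.99, 2.52 and 2.66 CPM in ID8 controls. Cxcl3 had 0 counts in each ID8 library labelled Cd276KO and 0.291, 0.258 and 0.228 CPM in ID8 controls.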

How the data were processed

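Reads were handled with Trim Galore, STAR and HTSeq on GRCm38 (mm10), per the submitters' processing notes. Their versions, the annotation release and the strandedness are not stated there. The authors deposited whole-number counts per gene in 1 table, not normalized. Symbols and coordinates came from GENCODE M21 of GRCm38, for 54723 of 54752 identifiers. Without a stated strand setting, reads of overlapping or antisense genes cannot be told apart, and those of near-identical copies (Clca3a1 and Clca3b, Xlr) are uncertain.

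Genes that passed filterByExpr were tested with edgeR 4.0.16 in R 4.3.3 (robust glmQLFit and glmQLFTest, TMM scaling) on the 6 HM-1 culture libraries, and differences between effects as interaction terms over 12 libraries. A gene was called at a Benjamini-Hochberg adjusted p under 0.05 over all genes tested. The SE is the log2 fold change divided by the square root of F. Levels are CPM of the total count, and fold changes come from the fits, so the 2 can differ slightly. Alternatives were DESeq2 1.42.0, limma 3.58.1 voom with quality weights, other scalings, no filter, all 18 libraries, a replicate block and leaving out each library. Samples were grouped by title.

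Members and the 53 gene lists were chosen with earlier results of these data known. Named genes were Cd276 and its family, the 15 largest robust fold changes and 10 largest CPM differences in each direction, up to 3 called members per list and direction, the most expressed genes with no Cd276KO count, the genes farthest off in control 1 and the top genes of the interactions. Genes named beyond this were chosen after their values were seen. Replicate numbers did not pair the samples (correlations of deviations 0.02, -0.01 and 0.03 for equal numbers over 9824 genes).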

Additional observations from a re-analysis of the deposited data

Results flagged for a closer look

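The Cd276KO effect was set against that in tumors and in ID8 cells by interaction terms of edgeR fits, adjusted over all genes, and 443 and 5747 genes differed. Values below are differences between log2 fold changes. For genes with a group near 0 counts the fitted size depends on the prior count and is no bound.

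Several genes were lower in Cd276KO cultures than in controls by a larger fold than in tumors. The tumor minus culture difference was 12.34 for Ckap4, 7.79 for Trim44, 7.64 for Ivns1abp, 7.12 for Arhgap30, 6.56 for Anpep, 5.74 for Padi4, 5.46 for Pcsk6, 4.35 for Nefl and 3.56 for Tnc. Trim44 averaged 12 CPM in Cd276KO tumors and 48.6 CPM in control tumors, with 0.0331 CPM in Cd276KO cultures and 35.2 CPM in control cultures. Host cells in the tumors were not separated, and their part was not tested.

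Aqp5 (-3.56), Tff1 (-4.83) and Cxcl2 (-4.17) were higher in Cd276KO cultures and lower in Cd276KO tumors, each against its controls. Ptpn22 (-4.25) and Tmprss11b (-4.67) had the same sign of difference. Spp1 (1.45) was lower in Cd276KO cultures and higher in Cd276KO tumors. Il1rn (1.39), Hnf4a (3.61) and BC030870 (3.58) were higher in Cd276KO cultures and by a larger fold in tumors. Csrp3 (7.94), a muscle gene, had a mean of 31.7 CPM in Cd276KO tumors and 0.477 CPM in control tumors, with 0.0513 CPM in Cd276KO cultures and 0.207 CPM in control cultures.

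Between lines, the HM-1 minus ID8 difference was -14.37 for Ckap4, -12.84 for Spint2, -12.71 for Perp and -10.8 for Padi4. It was 14.56 for Tmem35a, 10.76 for Rnf219, 9.26 for Ly6e and 9.24 for Col5a2. Tmem35a and Col5a2 were near 0 in HM-1 cultures, at 0.0171 and 0.0502 CPM in Cd276KO and 0 and 0.0131 CPM in control cells. HM-1 cells thus hold no measurable effect on them, and the differences come from ID8 cells (log2 fold changes -12.45 and -7.75). Spint2 and Padi4 were near 0 in ID8 cells, at 0.0373 and 0.0119 CPM in Cd276KO and 0 CPM in control cells, so ID8 cells hold no measurable effect on them. Ly6e averaged 1499 CPM in Cd276KO and 1600 CPM in control HM-1 cells, and 0.0243 CPM in Cd276KO and 20.4 CPM in control ID8 cells.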

How the results depend on the processing

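The number of genes called moved with the library left out, from 1725 (634 higher, 1091 lower) without Cd276KO library 3 to 7491 (3632 higher, 3859 lower) without control 1. With limma voom and quality weights it was 7559 (3667 higher, 3892 lower). Other scalings, no filter, DESeq2, all 18 libraries and the replicate block stayed within 1.5 times of 3452. The tumor minus culture interaction gave 953 genes (536 higher, 417 lower) with DESeq2, 848 (511, 337) with all 18 libraries and 3062 (1668, 1394) with voom. Leaving out a library gave 225 to 913, with 154 to 528 higher and 70 to 385 lower. The HM-1 minus ID8 count stayed within 1.5 times of 5747 in each setting run. The cause was not tested.

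Of 270 named genes checked in cultures, among them Cd80, which was not called, none reversed. The genes named for their distance in control 1, such as Hipk2, were not among them. Nearly all of the 270 were named because they were called, some of them in each fit leaving out 1 library. Their stability was therefore partly set by that choice and does not stand for all genes. Without control 1, 267 kept their result (called or not called), with all 18 libraries 221, and without Cd276KO libraries 1, 2 and 3 193, 202 and 196. Replicate numbers are shared only as numbers. With them as a block, 2469 genes were called in cultures, 231 of 270 named genes kept their result, and the tumor interaction gave 69 (48 higher, 21 lower). With other group sizes (20 or 80 genes), a minimum of 10 CPM or without control 1, settings chosen after seeing the data, 11.9% to 15.8% of groups of neighbouring genes were at or above 0.2 and 16.7% to 20.9% at or below -0.2. Depth limits genes under about 1 CPM.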

Other observations

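Upk1b, a uroplakin of the urothelium and mesothelium, had 30.2, 28.4 and 28.4 CPM in Cd276KO cells and 7.03, 7.97 and 8.11 CPM in controls (log2 fold change 1.95, SE 0.09, edgeR adjusted p = 2.96e-05). Of 8 mesothelial genes tested, 5 were higher and 0 lower (62.5% called, against 27.7% of all genes). Of 8 desmosome genes, 4 were lower and 1 higher, and of 16 tight and adherens junction genes, 3 were lower and 5 higher (median 0.11). The plaque protein gene Dsp had 0.191, 0.256 and 0.206 CPM in Cd276KO cells and 2.61, 4.30 and 5.62 CPM in controls (-4.20, SE 0.39, edgeR adjusted p = 0.000537). Ctnnb1, which encodes beta-catenin of adherens junctions, had 1006, 1027 and 1026 CPM in Cd276KO cells and 586, 724 and 735 CPM in controls (0.62, SE 0.10, edgeR adjusted p = 0.00476).

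Transcription factors of epithelial-mesenchymal transition were called lower in 3 of 10 (30.0%, against 16.1% of all genes called lower) and higher in 0 (median -0.23). Of the 3, 2 were called in all 7 fits. Without control 1, 6 were called lower and 0 higher, where 30.4% of all genes were called lower. Prrx1, a mesenchymal homeobox gene, had 3.58, 3.02 and 3.25 CPM in Cd276KO cells and 10.3, 13.8 and 13.8 CPM in controls (log2 fold change -1.91, SE 0.15, edgeR adjusted p = 0.00027). The drug efflux pump gene Abcb1a had 83.1, 78.6 and 78.7 CPM in Cd276KO cells and 26.8, 40.2 and 41.4 CPM in controls (1.19, SE 0.16, edgeR adjusted p = 0.00238; 1.03 without control 1).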
